A study of Mus musculus with 3 samples.

Results

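The transcripts of the Wnt/β-catenin pathway were examined in MC3T3-E1 cells, a line of preosteoblasts from mouse calvaria, after exposure to titanium (Ti) particles with or without selenomethionine (Se-Met), the amino acid form of selenium. Members were all genes of the expression table whose symbol was that of a numbered Wnt, Fzd, Dkk or Sfrp gene, together with a written list of receptors, inhibitors, relay proteins, TCF/LEF factors and target genes, and 56 of the 15287 genes listed met this rule. The rule itself reads gene symbols and no measured value, but its members were chosen with earlier results of these data known. RNA-seq was available for 3 libraries, each from 1 sample of wild-type cells: CTL had no special treatment, Ti received particles at 10 μg per square cm for 24 h, and Ti+Se-Met received the same particles together with 5 μM Se-Met. No library of cells given Se-Met alone was analysed here. Values are FPKM, fragments per kilobase of transcript scaled to the library's total, so levels of different genes can be set side by side.

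Wnt ligands are lipid-modified secreted proteins that bind a frizzled receptor and an LRP5 or LRP6 co-receptor at the cell surface. Without a ligand, a complex of axin, APC and the kinase GSK3β marks β-catenin for breakdown. When receptors are engaged, dishevelled proteins help to disable this complex, and β-catenin enters the nucleus and activates genes through TCF/LEF factors. In bone the pathway is known for driving the differentiation of osteoblasts, and inhibitors of it are known to limit bone formation.

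With 1 library per condition there was no replicate check, and no p-value could be given. Differences were taken on the log2(FPKM + 1) scale, which understates the change of low genes, and a gene was called when it differed by 2-fold or more. Folds are plain ratios of FPKM and stand beside a 95% interval in brackets, from an exact binomial calculation on estimated fragments. The intervals account for counting error alone, and they set libraries side by side rather than conditions. The estimated depth was 14150000 fragments in CTL, and 14750000 and 10400000 in Ti and Ti+Se-Met. Where 3 values stand together they are in the order CTL, Ti, Ti+Se-Met. All 3 comparisons share libraries, so a high or low value in 1 library enters 2 of them. In RNA from whole cultures, fewer cells of a type and less RNA per cell cannot be told apart.

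The labelled cell type was checked against marker genes. Of 10 osteoblast lineage markers, 7 reached 1 FPKM in at least 1 library, with Col1a1, Col1a2, Spp1 and Postn at 354.2 FPKM or more in every library, while Sp7 stayed at or below 0.63 FPKM and Ibsp at or below 0.04 FPKM. Summed over the list, the markers stood at 8220.07 FPKM in CTL, and 5498.47 and 6871.33 in Ti and Ti+Se-Met, but the abundant markers went in opposite directions. Spp1 was at 1261.19 FPKM in CTL, and 3705.78 and 4659.49 in Ti and Ti+Se-Met. Postn went from 2904.07 to 419.52 and 446.61 FPKM, Col1a1 from 1333.19 to 354.2 and 481.63 FPKM and Col1a2 from 2688.49 to 998.91 and 1256.6 FPKM. The sums for endothelial, adipocyte, muscle and epithelial markers stayed at or below 1.21 FPKM in every library. The macrophage sum was 32.5, 31.76 and 27.75 FPKM and came mainly from Lyz2 and Cd14, which went in opposite directions. Lyz2 was at 26.72, 14.76 and 12.42 FPKM and Cd14 at 5.7, 16.56 and 14.81 FPKM. Cd68 did not exceed 0.42 and Csf1r 0.1 FPKM, and Ptprc and Adgre1 were not among the genes listed. The chondrocyte sum, almost all of it Sox9, was 25.12, 36.49 and 40.01 FPKM. What part these shifts had in the values of the Wnt genes was not tested. The sources used here do not make clear whether the sequenced cells had been kept in osteogenic medium.

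Of the 56 genes, 39 reached 1 FPKM in at least 1 library and entered the comparisons. In CTL the highest levels belonged to Ctnnb1, which encodes β-catenin, at 252.77 FPKM, then Dkk3 at 171.65, the hyaluronan receptor and Wnt target Cd44 at 126.62 and the ligand carrier Wls at 122.56 FPKM. The summed level of all 56 genes was 0.290% of the total FPKM in CTL, and 0.194% and 0.216% in Ti and Ti+Se-Met. Among those that entered the comparisons the median was 16.38, 11.82 and 13.89 FPKM, beside 13.53, 14.29 and 13.64 FPKM over all 11137 genes that did.

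**Figure D1:**
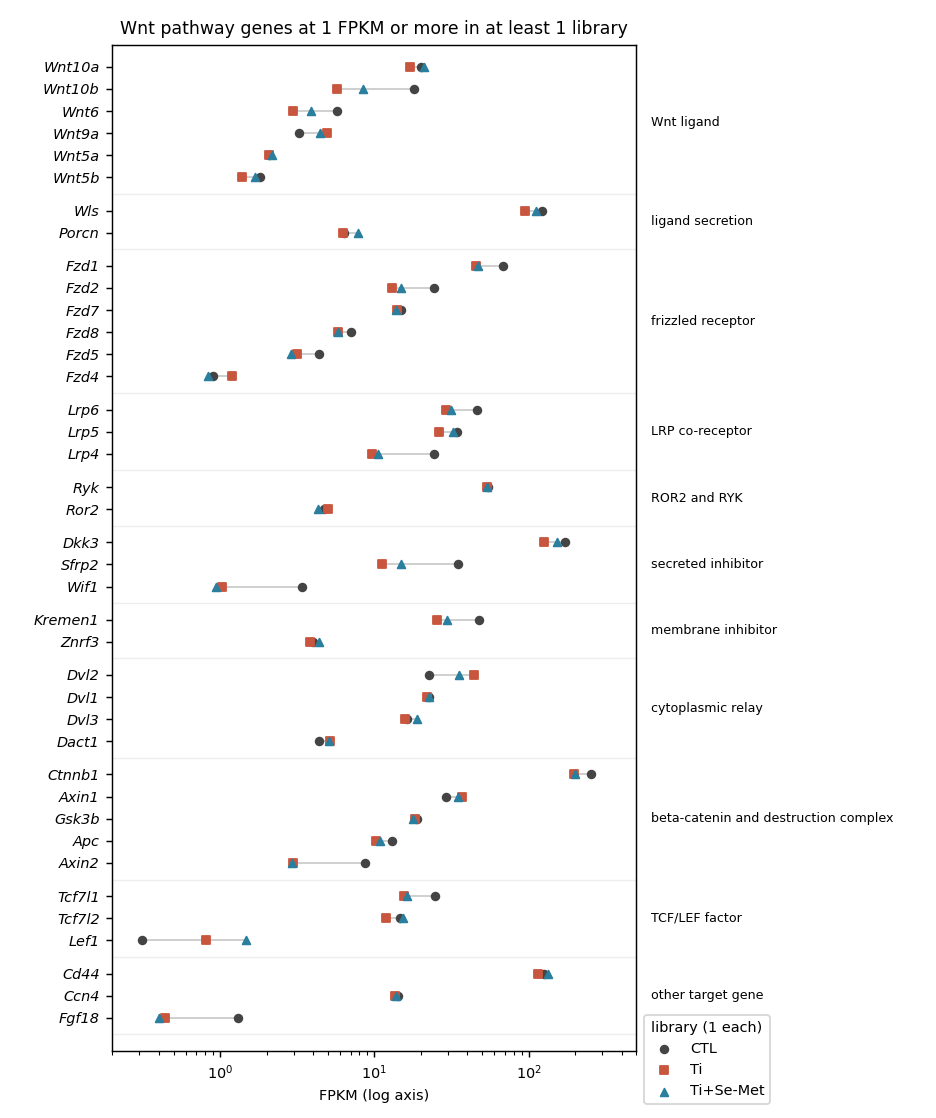
FPKM (log axis) of the 39 Wnt pathway genes that reached 1 FPKM, grouped by role, with 1 point for each of the 3 libraries and a grey line over their range. Axin2, Lrp4, Sfrp2, Wif1 and Wnt10b have their CTL point far to the right of both other points, and Dvl2 and Lef1 have it at the left.

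In Ti against CTL, 5 of 39 genes (12.8%) fell by 2-fold or more, beside 3.64% of all genes tested. They were the feedback inhibitor Axin2, the receptor Lrp4, the secreted inhibitors Sfrp2 and Wif1 and the ligand Wnt10b. None rose by 2-fold, beside 3.63% of all genes. At 1.5-fold 11 genes (28.2%) were lower, beside 11.3% of all genes, and 1 gene (2.56%), Dvl2, was higher, beside 15.5%. The 6 genes that the lower threshold added were Fgf18, Fzd2, Kremen1, Lrp6, Tcf7l1 and Wnt6. Fgf18, Fzd4 and Lef1 reached 1 FPKM in 1 library only (CTL, Ti and Ti+Se-Met in that order), so the filter partly set their direction. Without these 3 genes, 5 of 36 were lower at 2-fold and 10 at 1.5-fold, and 1 was higher at 1.5-fold. Counting any difference, 31 genes were lower, 7 higher and 1 equal, where 44.5% of all genes were lower. The median difference was -0.23 over the Wnt genes and 0.08 over all genes. The counting interval lay below equal for 22 of 39 Wnt genes, beside 32.0% of the 10919 genes with a transcript length. It lay above equal for 4 of 39 (Axin1, Dvl2, Lef1 and Wnt9a), beside 42.9%. These 22 and 4 held under every scaling tried, and the number below equal ran from 22 to 30. Without the 3 genes that reached 1 FPKM in 1 library only, intervals lay below equal for 21 of 36 and above for 3. Scaling to TPM moved the balance over all genes from 404 higher and 405 lower to 233 and 864, with a median of -0.14, and upper-quartile scaling moved it to 242 and 535, with a median of -0.04. Under every scaling tried, the Wnt genes' median lay 0.31 to 0.33 below that of all genes.

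In Ti+Se-Met against CTL, the same 5 genes had fallen by 2-fold or more (12.8%), beside 3.32% of all genes, and none had risen, beside 2.64%. At 1.5-fold 8 genes (20.5%) were lower, beside 11.8% of all genes, and Dvl2 and Lef1 (5.13%) were higher, beside 10.4%, and without the 3 genes that passed through 1 library 7 were lower and 1, Dvl2, higher. Counting any difference, 26 genes were lower and 13 higher, where 48.8% of all genes were lower. The medians were -0.10 over the Wnt genes and 0.01 over all genes. Intervals lay below equal for 19 of 39 Wnt genes, beside 33.4% of the 10919 genes with a transcript length. They lay above equal for 5, beside 35.9%. Of the first 18 held under all scalings, and of the second 2, Dvl2 and Lef1. Without the 3 genes that passed through 1 library, intervals lay below equal for 18 of 36 and above for 4. With TPM scaling the balance over all genes changed from 294 higher and 370 lower to 224 and 819, and the median to -0.17. Under that scaling Lef1 passed 2-fold upward.

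In Ti+Se-Met against Ti, no Wnt gene differed by 2-fold, beside 0.224% of all genes, and none by 1.5-fold, beside 2.14%. Counting any difference, 26 genes were higher and 13 lower, where 38.5% of all genes were higher. The median difference was 0.07 over the Wnt genes and -0.06 over all genes, and under the scalings tried the first lay 0.13 to 0.14 above the second. Intervals lay above equal for 13 of 39 genes, beside 15.7% of the 10919 genes with a transcript length. These 13 were Wnt10a, Wnt10b, Wls, Fzd2, Lrp5, Lrp6, Dkk3, Sfrp2, Kremen1, Dvl3, Lef1, Tcf7l2 and Cd44. Intervals lay below equal for 2 of 39, Dvl2 and Fzd4, beside 29.2% of the genes with a transcript length. Under all the scalings tried this held for Dvl2 but not for Fzd4. The 13 higher intervals held under each scaling, and up to 19 genes were above equal. Without the 3 genes that reached 1 FPKM in 1 library only, intervals lay above equal for 12 of 36 and below for 1, Dvl2.

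**Figure D2:**
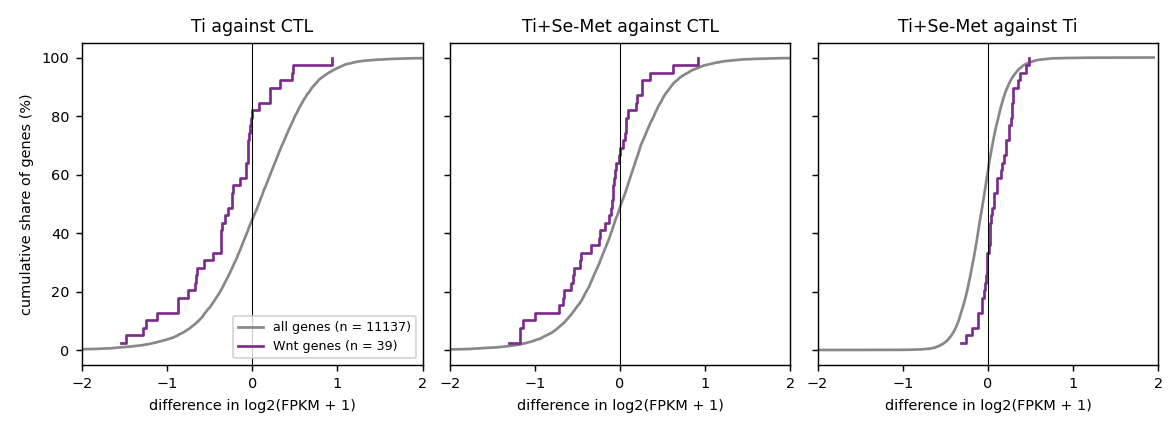
Cumulative share of genes (%) against the difference in log2(FPKM + 1) for the 39 Wnt genes (purple) and all 11137 genes tested (grey), 1 panel per comparison. The Wnt curve lies left of the grey curve in Ti against CTL, where the medians are -0.23 and 0.08, and right of it in Ti+Se-Met against Ti, where they are 0.07 and -0.06.

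Promoter sequences were read to show where the starts of the genes with the clearest differences lie, and whether they hold the core letters that TCF/LEF factors bind. RefSeq windows on GRCm38.p6, from 250 bases before to 50 bases after a start, were found for 39 of the 56 genes, in 49 windows. No window was found for Lrp4. The letters CTTTGAA or CTTTGAT or CTTTGTA or CTTTGTT were searched on both strands. They occurred in 5 of the 49 windows (10.2%), beside 16.9% of all 32851 windows. For genes that entered the comparisons, they occurred in 4 of 32 windows of Wnt genes (12.5%), beside 11.5% of all such windows. The 5 windows belonged to Fzd7, Lef1, Tcf7l2, Wnt11 and Wnt5b, and none of the 4 genes with a window that fell by 2-fold in Ti against CTL was among them. Such a match is a description of letters only, and no binding was measured. In the lines that follow, Axin2 and Wnt10b are shown as genes that fell. Lef1 is shown only by the window that holds its match. Dvl2 is shown as the gene with the largest difference upward on the log2(FPKM + 1) scale in Ti against CTL. Each line runs 5′ to 3′, with capitals marking a match to those letters or to CACGTG.
Axin2 (chr11:108920099-108920398, plus strand): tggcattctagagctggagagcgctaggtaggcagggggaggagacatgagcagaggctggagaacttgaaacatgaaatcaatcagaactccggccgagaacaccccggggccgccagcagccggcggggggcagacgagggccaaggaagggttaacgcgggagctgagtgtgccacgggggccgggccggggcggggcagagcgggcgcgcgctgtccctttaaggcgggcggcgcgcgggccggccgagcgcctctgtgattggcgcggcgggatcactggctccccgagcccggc
Wnt10b (chr15:98778101-98778400, minus strand): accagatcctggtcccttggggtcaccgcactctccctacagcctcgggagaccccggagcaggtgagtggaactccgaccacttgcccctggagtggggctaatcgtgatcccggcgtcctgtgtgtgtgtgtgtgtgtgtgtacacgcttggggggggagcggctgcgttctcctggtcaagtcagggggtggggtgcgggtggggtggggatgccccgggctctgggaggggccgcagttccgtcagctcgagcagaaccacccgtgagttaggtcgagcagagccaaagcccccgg
Lef1 (chr3:131156044-131156343, plus strand): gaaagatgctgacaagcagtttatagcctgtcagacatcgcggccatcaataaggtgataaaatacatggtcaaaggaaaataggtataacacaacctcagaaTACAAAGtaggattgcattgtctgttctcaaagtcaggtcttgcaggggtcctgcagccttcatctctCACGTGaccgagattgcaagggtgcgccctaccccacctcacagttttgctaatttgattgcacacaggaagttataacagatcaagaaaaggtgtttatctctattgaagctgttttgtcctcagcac
Dvl2 (chr11:70000342-70000641, plus strand): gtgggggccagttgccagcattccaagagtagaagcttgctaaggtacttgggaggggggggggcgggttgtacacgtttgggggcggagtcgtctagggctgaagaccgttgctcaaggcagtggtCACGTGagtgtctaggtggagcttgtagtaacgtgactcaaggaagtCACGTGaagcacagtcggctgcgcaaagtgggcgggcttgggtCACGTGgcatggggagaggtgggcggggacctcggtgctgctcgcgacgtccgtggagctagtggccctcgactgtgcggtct

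The printed Lef1 window holds TACAAAG, the reverse complement of CTTTGTA, and was chosen for that match. The other Lef1 windows, which start at bases 131110047, 131110073 and 131112541 of chromosome 3, held no such match. The palindrome CACGTG was searched only after the Dvl2 sequence had been seen. It occurred at least once in 7.15% of all windows, and 3 times in the Dvl2 window, a number that 0.0883% of all windows reached or passed. Since these letters were picked from the Dvl2 window, the last share cannot serve as a test. Windows of Fzd9, Lef1, Wif1 and Wnt9a held it once each.

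Among the ligands, Wnt10b and Wnt10a stood highest in CTL and differed from CTL by different amounts in Ti. Wnt10b, a ligand known to favour osteoblast over adipocyte fate, was at 17.95 FPKM in CTL, and 5.76 and 8.45 in Ti and Ti+Se-Met. Both treated libraries were below CTL, with folds of 0.321 [0.269 to 0.381] and 0.471 [0.395 to 0.557]. Ti+Se-Met was above Ti by 1.47-fold [1.19 to 1.81], a log2 difference of 0.48. With median-of-ratios scaling Wnt10b no longer reached 2-fold in Ti+Se-Met against CTL. Wnt10a, its close relative, was at 20.13, 17.03 and 21.04 FPKM, a fold of 0.846 [0.755 to 0.947] for Ti against CTL. Within a library the ratio of Wnt10a to Wnt10b, which scaling cannot alter, was 1.12 in CTL, and 2.96 and 2.49 in Ti and Ti+Se-Met. This ratio and the others given here were chosen after the values were seen.

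Wnt6, which lies next to Wnt10a on chromosome 1, was at 5.7 FPKM in CTL, and 2.96 and 3.87 in Ti and Ti+Se-Met. Its fold for Ti against CTL was 0.519 [0.394 to 0.682], short of the 2-fold call on the log2(FPKM + 1) scale at -0.76. Among the 6 ligands that entered the comparisons, Wnt9a was the 1 with a higher level in Ti, at 3.24, 4.9 and 4.42 FPKM, a fold of 1.51 [1.23 to 1.88] for Ti against CTL. The ligands best known for β-catenin-independent signalling differed little or were low. Wnt5a was at 2.08 FPKM in both CTL and Ti and at 2.16 in Ti+Se-Met, with an interval of 0.798 to 1.26 for Ti against CTL. Wnt5b was at 1.81, 1.39 and 1.68 FPKM. Summed over the 13 ligands listed, the level was 51.56 FPKM in CTL, and 34.32 and 41.87 in Ti and Ti+Se-Met, and Wnt10b made up 34.8%, 16.8% and 20.2% of it.

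Genes for ligand secretion were expressed in all libraries. Wls, the carrier that takes Wnt proteins to the cell surface, was at 122.56, 94.68 and 112.16 FPKM, with folds of 0.773 [0.740 to 0.807] for Ti against CTL and then 1.18 [1.13 to 1.24] for Ti+Se-Met relative to Ti. Porcn, the enzyme that attaches the lipid, was at 6.36, 6.28 and 7.81 FPKM, and its intervals included equal in all 3 comparisons.

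Of the 6 frizzled receptor genes that entered the comparisons, 5 were lower in Ti than in CTL, and none of them reached 2-fold under the deposited values. Fzd1, the most abundant, was at 68.4 FPKM in CTL, and 45.73 and 46.6 in Ti and Ti+Se-Met, a fold of 0.669 [0.636 to 0.702] for Ti against CTL. Fzd2 was at 24.38, 12.91 and 14.89 FPKM, a fold of 0.530 [0.481 to 0.582], and reached 2-fold only with TPM scaling among the settings tried. Both treated libraries lay below CTL for these 2 receptors. Fzd7 was at 14.82, 14.02 and 13.89 FPKM, with an interval of 0.862 to 1.04 for Ti against CTL. Fzd8 was at 7.04, 5.84 and 5.78 FPKM and Fzd5 at 4.35, 3.17 and 2.86 FPKM. Fzd4 was near the detection filter at 0.9, 1.19 and 0.83 FPKM. Frizzled levels summed to 120.3, 83.22 and 85.14 FPKM, and Fzd1 kept a like share of that sum, at 56.9%, 55.0% and 54.7%, while Fzd7 went from 12.3% to 16.8% and 16.3%.

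Among the 3 LRP genes, which are grouped here by name, Lrp4 stood out by the size of its difference. LRP4 binds the inhibitors sclerostin and DKK1 and is known to act in bone. It was at 24.33 FPKM in CTL, and 9.7 and 10.52 in Ti and Ti+Se-Met, on 2677, 1113 and 851 estimated fragments. Its folds against CTL were 0.399 [0.372 to 0.428] and 0.432 [0.40 to 0.467], and the fold between the treated libraries was 1.08 [0.991 to 1.19]. Lrp6, an essential co-receptor for canonical signalling, was at 46.26, 28.91 and 31.22 FPKM, a fold of 0.625 [0.60 to 0.651] for Ti against CTL. Lrp5, its paralog and a known regulator of bone mass, was at 34.2, 26.3 and 32.14 FPKM. For Lrp5 the fold was 0.769 [0.724 to 0.817] for Ti against CTL and then 1.22 [1.14 to 1.31] for Ti+Se-Met relative to Ti. Lrp6 therefore differed more from CTL than Lrp5 in both treated libraries, while Lrp5 differed more between them. All 3 LRP genes had lower values than CTL in both treated libraries under each scaling tried. For Lrp5 in Ti+Se-Met against CTL, however, the fold of 0.940 had an interval of 0.883 to 1.001 that included equal. Lrp4 went from 23.2% of their sum in CTL to 14.9% and 14.2%.

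The alternative receptors Ror2 and Ryk, receptor tyrosine kinase relatives that bind Wnt ligands, differed little. Ryk was at 54.58, 53.42 and 54.04 FPKM, a fold of 0.979 [0.921 to 1.04] for Ti against CTL. Ror2 was at 4.72, 5.04 and 4.32 FPKM, and the sign of its Ti difference turned with TPM or upper-quartile scaling.

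**Figure D3:**
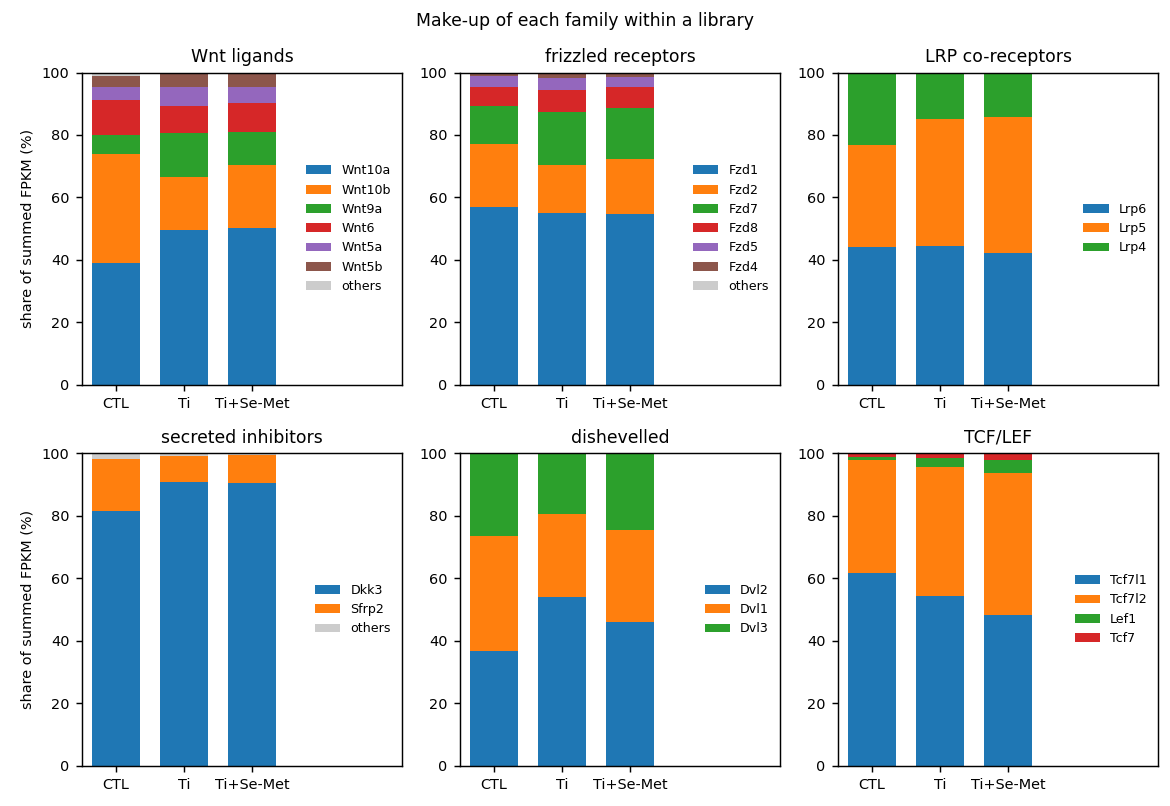
Share (%) of each gene in the summed FPKM of its family, 1 bar per library. Families are ligands, frizzled receptors, LRP genes (titled LRP co-receptors), secreted inhibitors, dishevelled and TCF/LEF genes. The Wnt10b share goes from 34.8% in CTL to and 16.8% and 20.2% in Ti and Ti+Se-Met, and the Dvl2 share from 36.8% to 54.0% and 46.0%.

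Secreted inhibitors were lower in Ti as well. Sfrp2, a frizzled-related protein that binds Wnt ligands, was at 34.62 FPKM in CTL, and 11.2 and 14.82 in Ti and Ti+Se-Met. Its folds against CTL were 0.324 [0.283 to 0.368] and 0.428 [0.374 to 0.490], and Ti+Se-Met was above Ti by 1.32-fold [1.12 to 1.56]. Wif1, which also binds Wnt ligands outside the cell, was at 3.39, 1.03 and 0.94 FPKM, resting on 103, 33 and 21 estimated fragments. Wif1 thus gave wide intervals, with a fold of 0.304 [0.201 to 0.459] for Ti against CTL and then 0.913 [0.496 to 1.61] for Ti+Se-Met relative to Ti. Dkk3, a divergent member of the Dickkopf family, was at 171.65, 124.96 and 151.88 FPKM and made up 81.6%, 90.9% and 90.6% of the summed secreted inhibitors. The ratio of Dkk3 to Sfrp2 was 4.96, 11.2 and 10.2.

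At the membrane, Kremen1, a receptor for Dickkopf proteins, was at 47.72 FPKM in CTL, and 25.61 and 29.74 in Ti and Ti+Se-Met. Its fold for Ti against CTL was 0.537 [0.506 to 0.569], just short of the call at -0.87, and it passed 2-fold with TPM or upper-quartile scaling. Znrf3, a ubiquitin ligase that removes frizzled receptors and the neighbour of Kremen1 on chromosome 11, was at 4.01, 3.83 and 4.36 FPKM, with an interval of 0.814 to 1.12 for Ti against CTL. The neighbours thus had different values in the same libraries.

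On the log2(FPKM + 1) scale Dvl2 had the largest difference upward of the 39 genes in Ti against CTL, at 0.93, short of the call. It encodes 1 of 3 dishevelled proteins, which carry the signal from the receptors to the axin complex. Its level was 22.72 FPKM in CTL, and 44.28 and 35.45 in Ti and Ti+Se-Met, on 906, 1841 and 1039 estimated fragments. The fold was 1.95 [1.80 to 2.11] for Ti against CTL and then 0.801 [0.741 to 0.864] for Ti+Se-Met relative to Ti. Dvl1 was at 22.63, 21.81 and 22.65 FPKM and Dvl3 at 16.38, 15.9 and 19.02 FPKM, and both intervals for Ti against CTL included equal. The ratio of Dvl2 to Dvl1 was 1.00 in CTL, and 2.03 and 1.57 in Ti and Ti+Se-Met. Dvl2 shares 18.3% of its exon bases with Acadvl, a fatty acid oxidation gene on the opposite strand that was at 50.63, 62.37 and 60.6 FPKM. No source used here states that reads were counted by strand, so reads from the shared bases cannot be told apart. The same holds for Ctnnb1, which shares 14.6% of its exon bases with Ulk4 (1.33, 0.83 and 1.19 FPKM), and for Sfrp2, Lef1, Dact1 and Fzd5, which share 13.7% to 34.9% with noncoding transcripts not analysed here. Dact1, a dishevelled-binding protein, was at 4.35, 5.19 and 5.08 FPKM.

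Ctnnb1 was at 252.77 FPKM in CTL, and 195.86 and 199.48 in Ti and Ti+Se-Met. Its fold was 0.775 [0.753 to 0.797] for Ti against CTL and then 1.02 [0.986 to 1.05] for Ti+Se-Met relative to Ti, and with 10775, 8703 and 6250 estimated fragments these are among the narrowest intervals of the set. Between the treated libraries the Ctnnb1 interval included equal with the deposited values, and lay just above it after TPM scaling (1.04 [1.01 to 1.08]), median-of-ratios scaling (1.07 [1.03 to 1.10]) and upper-quartile scaling (1.07 [1.03 to 1.10]). In the destruction complex, Axin2, a textbook target gene and feedback inhibitor whose promoter is printed above, was at 8.7, 2.98 and 2.94 FPKM. The folds of Axin2 were 0.343 [0.288 to 0.407] for Ti and 0.338 [0.276 to 0.413] for Ti+Se-Met against CTL, and 0.987 [0.780 to 1.25] between the treated libraries. Axin1, the constitutive scaffold of the same complex, was at 29.18, 36.93 and 35.07 FPKM, a fold of 1.27 [1.18 to 1.36] for Ti against CTL. The axin genes thus differed in opposite directions under each scaling tried, and the ratio of Axin1 to Axin2 was 3.35 in CTL, and 12.4 and 11.9 in Ti and Ti+Se-Met. Apc was at 13.06, 10.31 and 10.9 FPKM. Gsk3b was at 18.99, 18.34 and 17.66 FPKM, with an interval of 0.91 to 1.03 for Ti against CTL.

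The TCF/LEF factors, which bring β-catenin to DNA, did not all differ in the same direction. Tcf7l1, known mainly as a repressor, was at 24.83 FPKM in CTL, and 15.53 and 16.36 in Ti and Ti+Se-Met, a fold of 0.625 [0.560 to 0.699] for Ti against CTL. Tcf7l2 was at 14.62, 11.82 and 15.35 FPKM, with folds of 0.808 [0.718 to 0.911] for Ti against CTL and then 1.30 [1.14 to 1.47] for Ti+Se-Met relative to Ti. The ratio of Tcf7l1 to Tcf7l2 was accordingly 1.70, 1.31 and 1.07. Lef1 was low throughout, at 0.31, 0.81 and 1.47 FPKM on 14, 38 and 49 estimated fragments. Its FPKM ratio was 2.61 [1.38 to 5.20] for Ti and 4.74 [2.59 to 9.34] for Ti+Se-Met against CTL, but on the log2(FPKM + 1) scale the differences of 0.47 and 0.91 were not called. With a pseudocount of 0.1 in place of 1, Lef1 passed 2-fold in both comparisons. With TPM scaling it did so in Ti+Se-Met against CTL, at 1.19.

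Other target genes differed less or were low. Ccn4, a matricellular protein first described as Wnt-induced, was at 14.31, 13.55 and 13.83 FPKM, with an interval of 0.866 to 1.03 for Ti against CTL. Cd44 was at 126.62, 114.41 and 132.6 FPKM, a fold of 0.904 [0.864 to 0.945] for Ti against CTL and then 1.16 [1.11 to 1.22] for Ti+Se-Met relative to Ti. Fgf18, a growth factor for skeletal cells, was at 1.3, 0.44 and 0.4 FPKM on 17, 6 and 4 estimated fragments, so its fold of 0.338 for Ti against CTL had an interval of 0.109 to 0.90. The target genes Axin2, Ccn4 and Cd44 therefore did not share a size of difference in the same libraries.

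**Figure D4:**
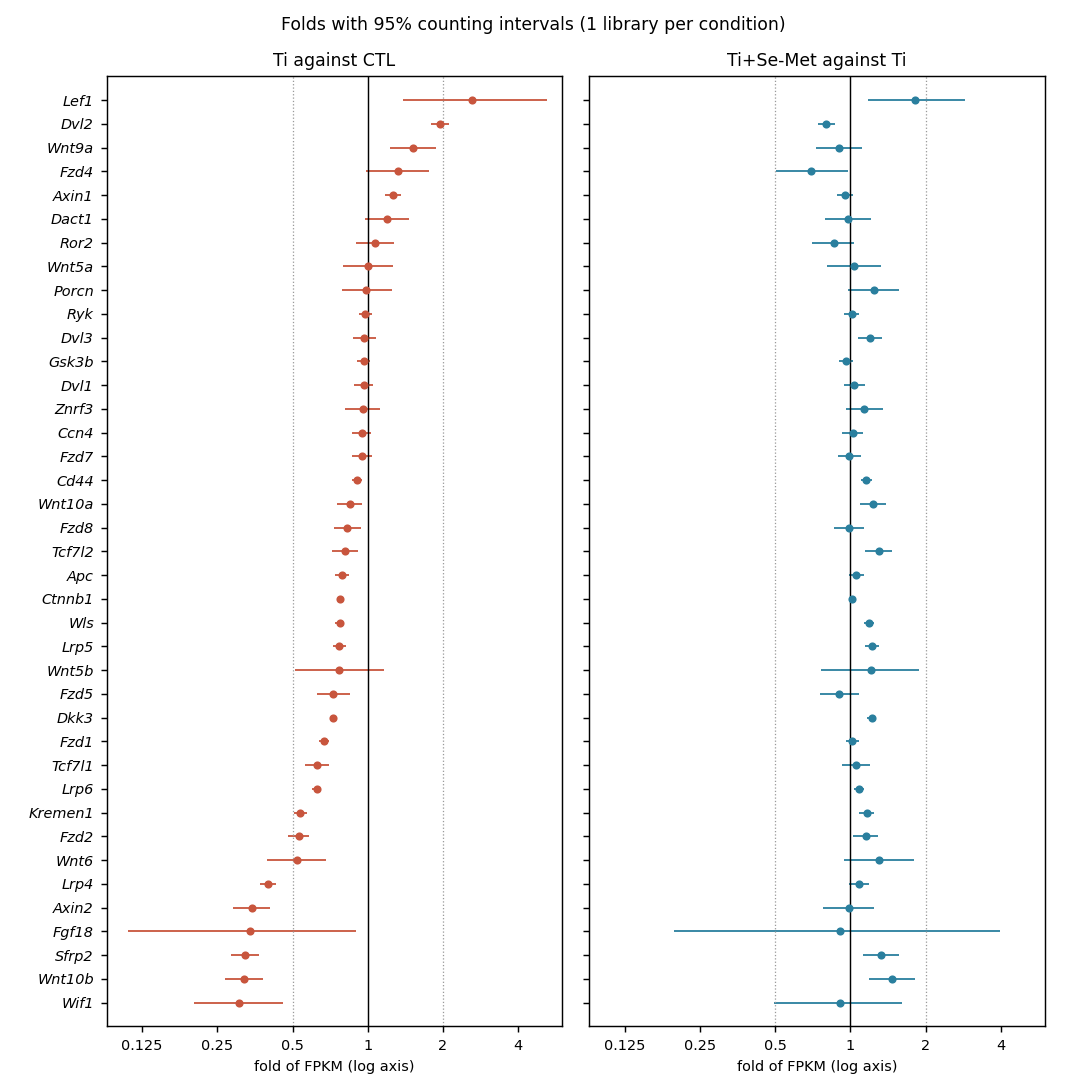
Fold of FPKM (log axis) with its 95% counting interval for the 39 Wnt genes, ordered by Ti against CTL, in that comparison (left) and in Ti+Se-Met against Ti (right), with dotted lines at 2-fold. The left panel runs from 0.304 for Wif1 to 2.61 for Lef1, and in the right panel every point lies inside the dotted lines.

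The other 17 genes stayed below 1 FPKM in every library: Wnt1, Wnt2b, Wnt4, Wnt7a, Wnt7b, Wnt8b, Wnt11, Fzd6, Fzd9, Dkk2, Frzb, Sfrp1, Sfrp5, Rnf43, Nkd1, Nkd2 and Tcf7. Their levels reached at most 0.71 FPKM in CTL, and 0.46 and 0.69 in Ti and Ti+Se-Met, and 2, 5 and 6 of them were listed at 0. A value of 0 leaves room for a true level of up to 3 expected fragments, which corresponds to at most 0.165 FPKM among these genes. The feedback ubiquitin ligase Rnf43, a partner of Znrf3, was at 0.71, 0.27 and 0.29 FPKM, a fold of 0.380 [0.189 to 0.685] for Ti against CTL. The feedback inhibitor Nkd2, which binds dishevelled, was at 0.48, 0.21 and 0.29 FPKM, a fold of 0.438 [0.204 to 0.909]. The secreted inhibitor Dkk2 was at 0.53, 0.17 and 0.03 FPKM, a fold of 0.321 [0.132 to 0.70]. The ligand Wnt11 was at 0.33, 0.05 and 0.16 FPKM, on 12, 2 and 4 estimated fragments, a fold of 0.152 [0.0174 to 0.718]. These 4 are named because they were the ones of the 17 whose interval for Ti against CTL did not include equal, a choice made after their values were seen, and the filter kept them out of the calls.

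Other genes of the pathway were described by 6 lists, whose counts stand beside the shares of all genes past 2-fold given earlier, for Ti 3.63% upward and 3.64% downward, for Ti+Se-Met 2.64% and 3.32%, each against CTL. None of the 12 further genes of the destruction complex, such as casein kinases and tankyrases, differed by 2-fold in any comparison, with medians of 0.11 for Ti against CTL and then -0.05. for Ti+Se-Met relative to Ti Of 17 nuclear partners, 1 fell by 2-fold in Ti: Tle2, a Groucho family co-repressor of TCF factors, was at 27.45 FPKM in CTL, and 8.38 and 9.85 in Ti and Ti+Se-Met. Of 24 secreted and membrane modulators 11 entered the comparison. In Ti 1 fell by 2-fold, Reck, a membrane protein that takes part in WNT7 signalling, at 14.39, 6.62 and 8.14 FPKM. Gpc4, at 42.26, 20.64 and 20.79 FPKM, was just short of the call at -0.999 in Ti against CTL. The R-spondin receptor Lgr6, at 0.06, 0.96 and 1.88 FPKM, was the 1 modulator past 2-fold in Ti+Se-Met against CTL, and it passed the filter through that library only. Of 18 genes of planar polarity and other branches 14 entered, with none past 2-fold in Ti and 1 in Ti+Se-Met against CTL, the transcription factor Nfatc1, at 7.81, 13.5 and 16.72 FPKM. Of the 5 cadherin and catenin adhesion genes that entered, none differed by 2-fold, and Cdh11, osteoblast cadherin, was at 314.67, 194.99 and 204.79 FPKM.

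Genes known as Wnt targets in many tissues went in both directions in Ti against CTL. Of 16 genes 11 entered the comparison, and 3 rose and 1 fell by 2-fold. At 1.5-fold 4 were higher, beside 15.5% of all genes, and 4 lower, beside 11.3%. Myc was at 14.01, 33.72 and 25.22 FPKM, Ccn5 at 96.19, 295.09 and 228.1 FPKM and the angiogenic factor Vegfa at 31.22, 94.37 and 79.08 FPKM. Tnfrsf19, a receptor of the TNF receptor family, was at 3.5, 0.39 and 0.47 FPKM and passed the filter through CTL only. Also lower at 1.5-fold were Bmp4 at 9.9, 5.33 and 6.89 FPKM and Tnfrsf11b at 13.59, 8.38 and 13.14 FPKM. So was Runx2, at 26.77, 17.14 and 22.97 FPKM. The cell division gene Birc5 was at 18.6, 37.86 and 46.25 FPKM and was called only in Ti+Se-Met against CTL. Ccnd1, which encodes cyclin D1, was at 250.25, 263.31 and 264.82 FPKM. Between the treated libraries, none of the 6 lists had a gene past 2-fold. At 1.5-fold there was 1, Tnfrsf11b, higher in Ti+Se-Met by 0.59 on the log2(FPKM + 1) scale, beside 2.14% of all genes in either direction.

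**Figure D5:**
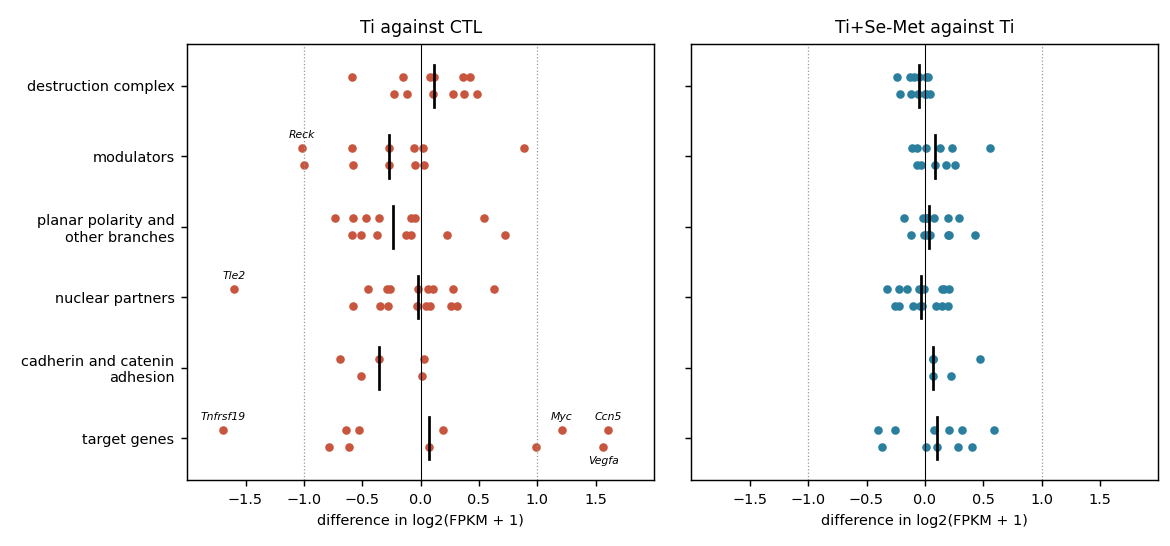
Difference in log2(FPKM + 1) of every gene that entered the comparison in 6 further lists of pathway genes, 1 point per gene with a black bar at the list's median and dotted lines at 2-fold. In Ti against CTL the target genes spread from Tnfrsf19 at -1.69 to Ccn5 at 1.61, and in Ti+Se-Met against Ti all points lie inside the dotted lines.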

How the data were processed

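RNA-seq of MC3T3-E1 cells comprised 1 library for each of the 3 conditions. The values the authors deposited are FPKM for each gene, given to 2 decimals. The submitters' processing notes name HISAT2, SAMtools and StringTie and the build mm9, while the methods name HTSeq for counting, and how FPKM was made is not given in the sources used here. FPKM depends on the transcript length that was used and on each library's total. Columns were matched to libraries by name, and 0 columns were left unmatched.

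Of 15287 genes, the 11137 that reached 1 FPKM in any library were compared as log2(FPKM + 1), in Python 3.11.15 (scipy 1.17.1, pandas 2.3.3, numpy 2.4.6). No count model was applied to FPKM, and no p-value was computed. To estimate depth, the smallest steps between values were read in 453 short genes (1 transcript of 350 to 1000 bases, less 150 bases each), with GENCODE M21 lengths, which were found for 95.3% of genes and for all 56 members. Of the low values, 59.8%, 51.1% and 48.9% lay on a step of 1 fragment in CTL, Ti and Ti+Se-Met. At a depth fixed in advance 16% would by chance, but the depth and the bases subtracted were picked to raise this share. The CTL estimate ran from 11550000 fragments with 0 bases subtracted to 15300000 with 200. The fragments and intervals are therefore estimates. Low values were least precise in Ti+Se-Met, the shallowest library. The steps were tested on simulated data.

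All members at 1 FPKM or more are named with their values and the others by name, number and range, with values for 4 of them chosen after they were seen. Genes of the further lists are named where they differed by 2-fold. Cdh11, Ccnd1, Gpc4, Bmp4, Tnfrsf11b and Runx2 were added after their values were seen. The members and lists were chosen with earlier results of these data known. The alternatives changed the pseudocount (0.1 or 5), the filter (none, or a mean of 5 FPKM), the threshold (1.5-fold or 4-fold) and the scaling (TPM, median of ratios or upper quartile).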

Additional observations from a re-analysis of the deposited data

How the results depend on the processing

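Of the 5 Wnt genes past 2-fold in Ti against CTL, Sfrp2 and Wnt10b were left with a pseudocount of 5 (2 genes) and those 2 with Lrp4 under a mean FPKM of at least 5 (3 genes), which tests fewer genes. The count was 12 at 1.5-fold, 0 at 4-fold and 9 with TPM scaling, all 9 lower. Over all genes, the shares past the threshold in either direction were 2.99% with a pseudocount of 5 and 7.07% under a mean FPKM of at least 5. They were 26.8% at 1.5-fold, 0.512% at 4-fold and 9.85% with TPM scaling, where 233 genes were higher and 864 lower. For Ti+Se-Met against CTL the 5 became 0 with a pseudocount of 5, 3 under a mean FPKM of at least 5, 10 at 1.5-fold and 0 at 4-fold. Over all genes the shares were 2.18%, 5.14%, 22.2% and 0.44% in that order. With TPM scaling the count was 7, 6 lower and 1 (Lef1) higher, beside 9.37% of all genes. With median-of-ratios scaling it was 4, beside 5.94%. With a pseudocount of 0.1 and no filter, a pair of choices added after seeing the data, the counts were 10, 9 and 2 for Ti against CTL, Ti+Se-Met against CTL and Ti+Se-Met against Ti, and the last 2 were Dkk2 and Fzd9, both below 1 FPKM. Leaving out the 3 genes that reached 1 FPKM in 1 library only, also chosen after seeing the data, kept the counts at 5, 5 and 0. Larger pseudocounts shrink differences of low genes by construction. The cause of the change with TPM scaling was not tested. For the single genes 490 values under an alternative scaling or pseudocount lay within the counting interval, 95 lay outside it and 0 of the called ones changed sign. These values include a pseudocount, while the intervals are of plain FPKM ratios, so a low gene can lie outside with little change. Lef1 in Ti+Se-Met against CTL was at 0.91 in the main setting and 0.93 with median-of-ratios scaling, and the latter counted as outside. Some differences near 0 did turn with scaling: Ror2 in Ti against CTL, Cd44, Dvl1, Ryk, Tcf7l2, Wnt10a, Wnt5a and Znrf3 in Ti+Se-Met against CTL, and Axin2, Dact1, Fzd7, Fzd8 and Gsk3b in Ti+Se-Met against Ti. Depth limits Wif1, Lef1, Fgf18 and the 17 genes below 1 FPKM most. No paired analysis was possible because there was 1 library a condition, and no library could be left out for the same reason.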
